A study of Gallus gallus with 2 samples.

Results

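Splicing factors, heterogeneous nuclear ribonucleoproteins (hnRNPs), small nuclear ribonucleoprotein (snRNP) proteins and CLK kinases were followed in the brain of newly hatched chicks after imprinting training. The members were the array probes whose description names a splicing factor, an hnRNP, an snRNP protein or a CDC-like kinase, or that carry the symbol CLK4 or SFSWAP. A hnRNP K probe and probes placed on chromosome Z were left out. This gave 50 probes of 45 gene or transcript names, out of 42034 probes on the array. The rule uses the annotation, though it was written with earlier results of these data known. The brain RNA came from Cobb chicks trained for 1 h and from chicks reared in the dark, 16 of each. It was combined into female trained, male trained, female dark-reared and male dark-reared pools of 8 chicks each. Each sex had a single 2-colour array, with the trained pool in Cy3 and the dark-reared pool in Cy5. No array had the dyes exchanged, and training cannot be told apart from a preference of a probe for 1 dye. Dark-reared chicks were the only controls, so imprinting cannot be told apart from the light that trained chicks saw. Each pool is a mixture of 8 animals, so the spread between animals is not in these data.

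The spliceosome removes introns from pre-mRNA with small nuclear RNAs bound by Sm and other snRNP proteins. SR proteins and hnRNPs bind the transcript and help decide which exons are kept. CLK kinases phosphorylate the serine- and arginine-rich domains of SR proteins and so control where those proteins sit in the nucleus and how they act. Transcripts of CLK kinases and of many splicing factors are themselves alternatively spliced, which links their abundance to the splicing activity of the cell. In neurons, alternative splicing shapes receptors, channels and adhesion proteins.

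Of the 50 probes, 47 passed the filter, which asked on each array for a signal well above background in either channel, and were tested. The 3 others were annotated as hnRNP R, hnRNP A0 and a relative of the plant factor RSZ33, and they were not well above background in any channel. The tested probes comprised 15 of other splicing factors, 10 of hnRNPs, 9 of the SR family (taken as names with SFRS or SRSF), 7 of snRNP proteins, 3 of SF3 subunits and 3 of CLK kinases. Levels are given as normalised log2 signals of a probe in each pool and ratios as log2 of trained over dark-reared. Levels of different probes are not comparable. Means over both arrays stand with their SD (n = 2 arrays), and a probe was called at an adjusted p of 0.05 in limma's moderated test over all 27372 tested probes of the array.

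Markers of brain cells were checked in the same channels. All 9 neuronal marker genes on the array, all 4 astrocyte genes and both oligodendrocyte genes had a probe well above background in every channel. So did all 4 endothelial genes, the blood genes HBBA and HBA1, and ALB, APOA1 and FGB from the list of genes not typical of brain. Of the 7 genes of that list on the array, ACTA1, FGA and MYL1 were not well above background in any channel. INS of that list and the blood gene HBZ had no probe well above background in every channel. The percentage of array probes well above background was 62.9% and 61.5% in the trained channels of the female and male array, against 66.5% and 66.4% in the dark-reared channels.

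Of the 47 splicing probes, 12 were lower (25.5%) and 2 higher (4.26%) in trained chicks, and 33 did not pass the test. Over the whole array 11.2% of probes were called lower and 6.31% higher. The rule names CLK4 and SFSWAP and was written with earlier results known, and all probes of both genes are among the 12. The share of lower members is therefore not independent of those results. The splicing probes were bright on the array, and bright probes were called more often: 27 of the 47 lay in the brightest tertile of all tested probes, where 7 were lower, against 19.4% of all probes there. Of 13 in the middle tertile 5 were lower, against 13.2% of all probes there, and of 7 in the dimmest tertile 0 were lower, against 1.12%. The median ratio of the splicing probes was -0.0093, near the -0.012 of all tested probes. In whole-brain RNA, fewer cells of a type and less RNA per cell cannot be told apart. Of the marker probes tested, 4 of 10 neuronal, 3 of 8 endothelial, 2 of 4 astrocyte and 1 of 2 oligodendrocyte probes were lower. Higher were 1 astrocyte probe, 1 oligodendrocyte probe and 1 of 2 blood probes, that of the globin HBBA. The log2 of the summed neuronal signal was 16.68 and 16.74 in the trained female and male pools, against 16.91 and 16.89 in the dark-reared pools. For astrocytes it was 15.25 and 15.26 in the trained pools, against 15.40 and 15.45 in the dark-reared pools. Oligodendrocyte sums were 15.03 and 14.70 in the trained pools, against 15.40 and 15.41 in the dark-reared pools. All 3 sums were lower in the trained pools, but a sum is dominated by its brightest probes. The median ratio of the tested marker probes was -0.025 for neurons and -0.099 for astrocytes, beside -0.012 for all tested probes. The oligodendrocyte probes differed, with MBP at -0.62 and CNP at 0.26. Endothelial sums were 12.17 and 12.11 in the trained pools, against 12.26 and 12.20 in the dark-reared pools, and blood sums 14.09 and 14.03 in the trained pools, against 13.81 and 13.54. Their part in the splicing results was not tested.

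**Figure D1:**
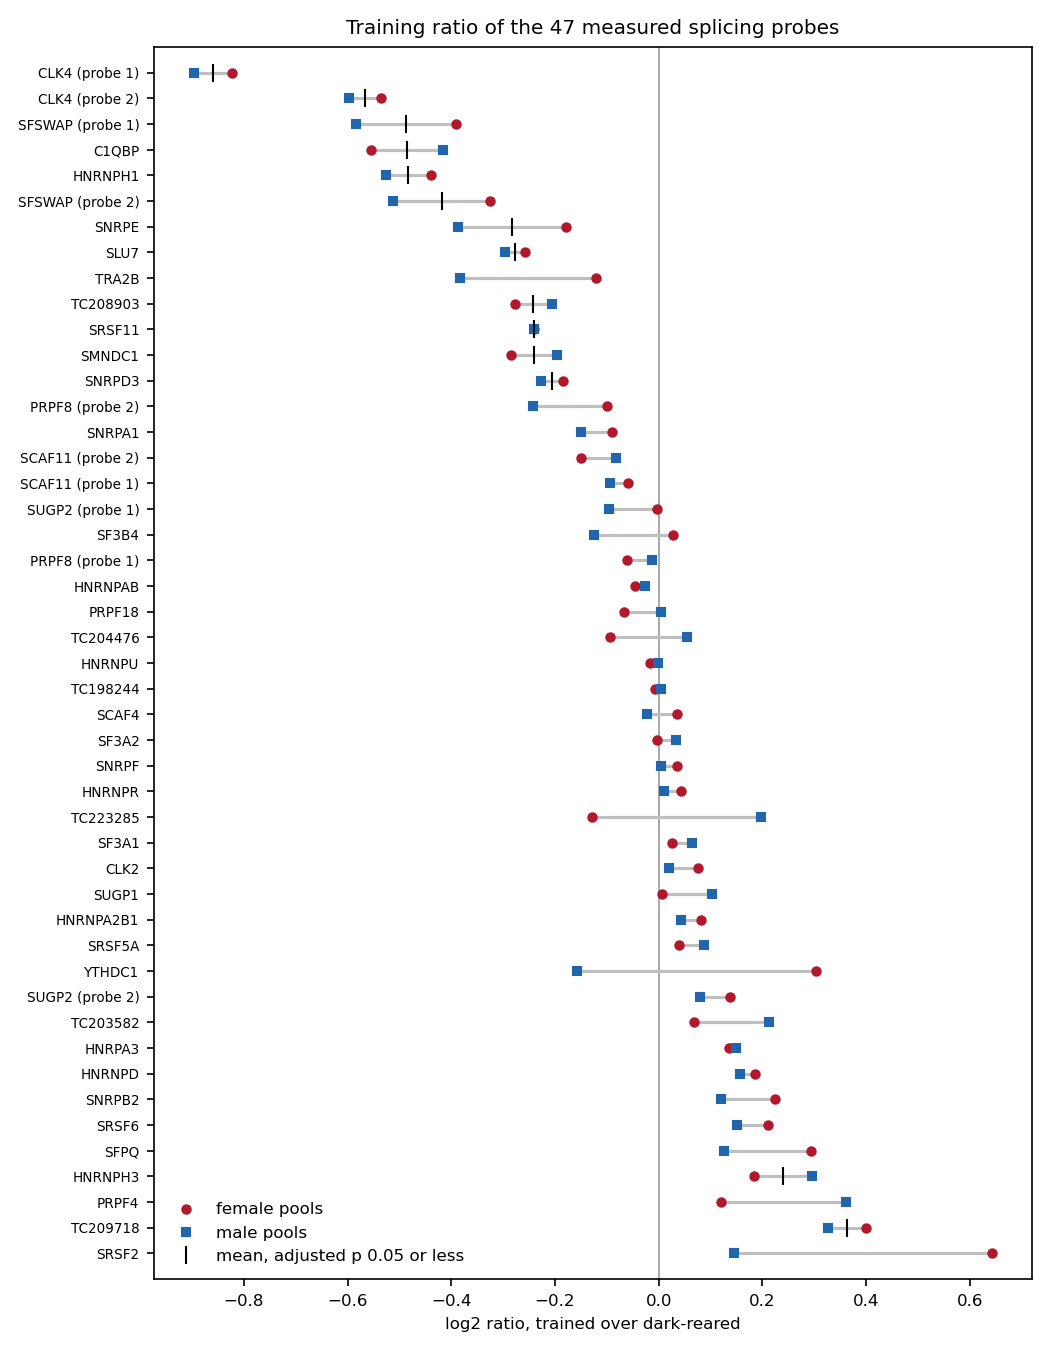
Log2 ratio of trained over dark-reared for each of the 47 tested splicing probes (rows, ordered by mean), with the female pools as red circles and the male pools as blue squares joined by a grey line, and a black tick at the mean of the called probes. The CLK4 probes lie farthest to the left at -0.86 and -0.57, and most probes between the called ones lie close to 0.

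The probes of the kinase CLK4, which the rule takes by name, gave the lowest mean ratios among the members. CLK4 phosphorylates SR proteins. Its brighter probe, on chromosome 13 from 12925213 to 12925234 in the galGal2 build, had signals of 10.67 in the trained female pool and 10.29 in the trained male pool, against 11.50 and 11.18 in the dark-reared female and male pools. Both trained pools lay below both dark-reared pools, as they did for 29.9% of all tested probes. The ratios were -0.82 in females and -0.90 in males, and the mean fell by 0.86 log2 units (SD 0.052, n = 2), 0.551 of the dark-reared level, with limma's adjusted p = 0.00697. The array annotation of this probe also lists a second predicted transcript. The interval placed for it is 22 bases long, against 60 for the other CLK4 probe. The other CLK4 probe lies 7190 bases away, from 12932425 to 12932484. It had 7.36 and 7.28 in the trained female and male pools, against 7.89 and 7.87 in the dark-reared ones, again without overlap. It fell by 0.57 log2 units (SD 0.044, n = 2), with limma's adjusted p = 0.00818. The scanner software's own processed signals gave -0.54 and -0.52 for the brighter probe and -0.44 and -0.55 for the other in females and males.

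The single CLK2 probe did not pass the test. CLK2 is another kinase of SR proteins, and its probe had 6.71 and 6.82 in the trained female and male pools, against 6.63 and 6.80 in the dark-reared pools. Its ratios of 0.076 and 0.020 gave a mean of 0.048 (SD 0.039, n = 2; limma's adjusted p = 0.589). Centring on the median, without loess, put CLK2 at -0.11, where the median of all tested probes was -0.34. That scaling moved probes by differing amounts, so CLK2 cannot be read against that median alone. The difference between CLK4 and CLK2 was not tested.

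SFSWAP, the homologue of the fly suppressor-of-white-apricot, is a regulator with a serine- and arginine-rich domain that controls its own splicing in flies. Both of its probes on chromosome 15 were lower. The brighter one, from 2756714 to 2756773, had 10.59 and 10.46 in the trained female and male pools, against 10.98 and 11.04 in the dark-reared pools. It fell by 0.49 log2 units (SD 0.14, n = 2; limma's adjusted p = 0.0111). The other probe, 29059 bases away from 2785833 to 2785891, had 7.28 and 7.11 in the trained female and male pools, against 7.61 and 7.62 in the dark-reared pools. It fell by 0.42 log2 units (SD 0.13, n = 2; limma's adjusted p = 0.0139). At both SFSWAP probes the trained pools lay below the dark-reared pools without overlap, as at 29.9% of all tested probes. The decrease was larger in males at both, with ratios of -0.58 and -0.51 in males against -0.39 and -0.32 in females.

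**Figure D2:**
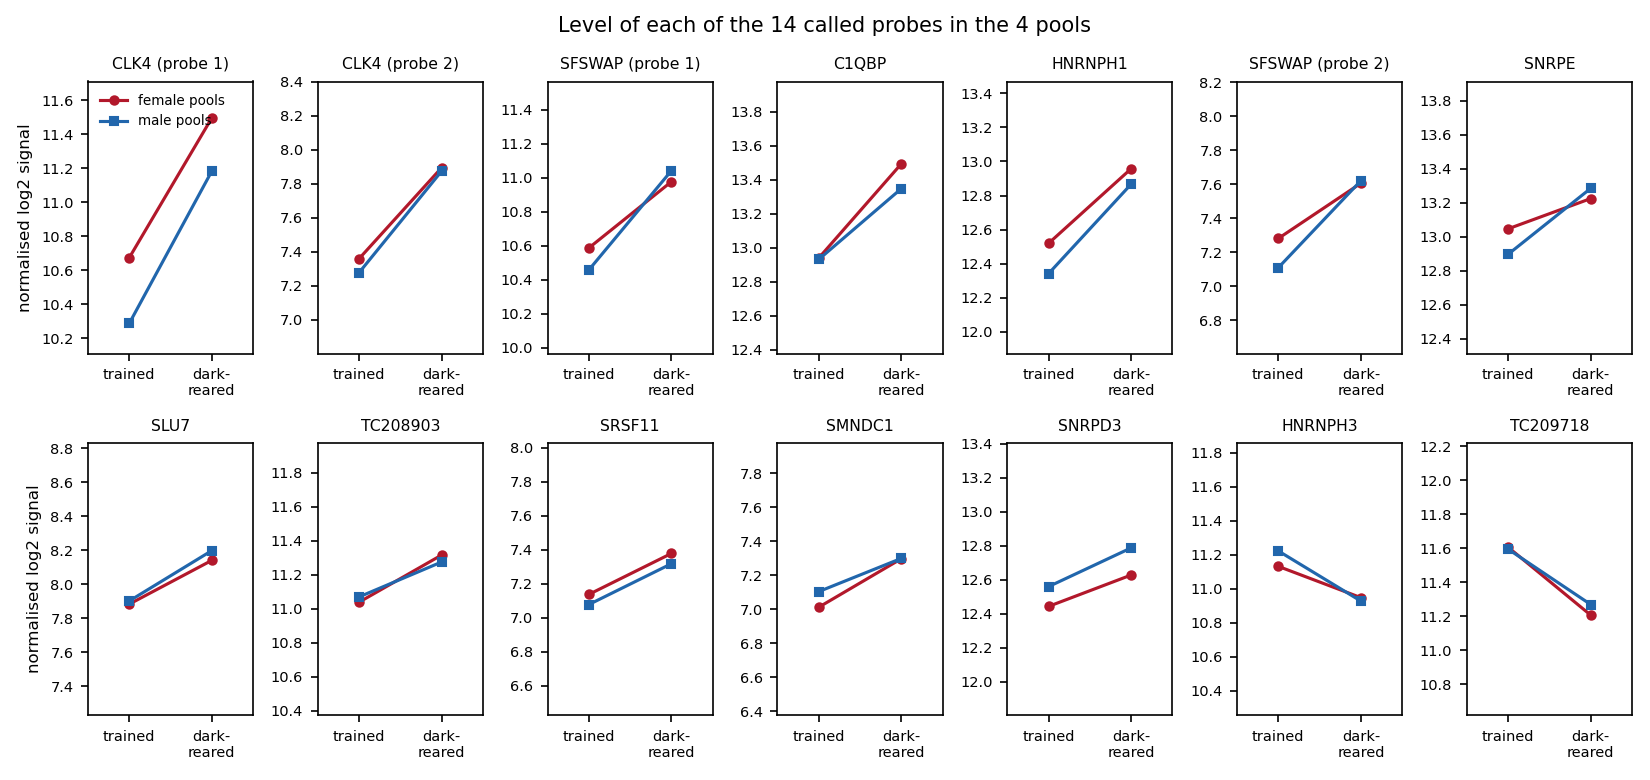
Normalised log2 signal (vertical axis, a range of the same width in every panel) of the 14 called splicing probes in the trained pools (left) and the dark-reared pools (right), with a red line for the female and a blue line for the male pools of 1 array. Every line of the first 12 panels runs upward to the dark-reared pool, and the lines of HNRNPH3 and TC209718 run downward.

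Other splicing factors included 4 more called probes, all lower. With SFSWAP, 6 of the 15 probes of this class were lower (40%), beside 11.2% over the array. The 6 include both SFSWAP probes and both probes annotated to SMNDC1, and probes of the same gene are not independent. C1QBP, which the array describes as the p32 subunit of the SR protein SF2 and which is also known as a mitochondrial protein, had 12.94 and 12.93 in the trained female and male pools, against 13.49 and 13.35 in the dark-reared pools. It fell by 0.49 log2 units (SD 0.097, n = 2; limma's adjusted p = 0.00970). SLU7, a factor of the second step of splicing, had 7.88 and 7.90 in the trained pools, against 8.14 and 8.20 in the dark-reared pools. It fell by 0.28 log2 units (SD 0.027, n = 2; limma's adjusted p = 0.0223). Both genes had trained pools that lay below the dark-reared pools without overlap, as did 29.9% of all tested probes.

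SMNDC1, a relative of the survival of motor neuron protein that takes part in spliceosome assembly, was lower at its own probe and at TC208903, which the array annotates to the same factor. The SMNDC1 probe had 7.01 and 7.10 in the trained female and male pools, against 7.30 in each dark-reared pool. The TC208903 probe, 1496 bases away on chromosome 6, had 11.04 and 11.07 in the trained pools, against 11.32 and 11.28 in the dark-reared pools. Each fell by 0.24 on the log2 scale, with limma's adjusted p = 0.0359 for the SMNDC1 probe and 0.0339 for TC208903. The processed signals of TC208903 were -0.066 in females and 0.0032 in males, so its decrease was not seen in males with that scaling.

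The remaining factors of this class did not pass the test. SFPQ, a nuclear protein of paraspeckles, had 10.14 and 10.09 in the trained female and male pools, against 9.84 and 9.97 in the dark-reared pools (mean ratio 0.21, limma's adjusted p = 0.0711). PRPF8, the large protein at the centre of the spliceosome, had mean ratios of -0.17 and -0.037 at its probes. In the trained channel the probe with the mean of -0.037 failed to reach well above background in both sexes. SCAF11, described as an interactor of SRSF2, had means of -0.12 and -0.076. The second-step factor PRPF18 (-0.031), SUGP1 (0.055) and a probe annotated to a splicing factor-like protein, TC198244 (-0.00099), were near 0. SUGP1 had processed ratios of 0.31 in females and 1.01 in males.

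YTHDC1, a nuclear reader of methylated adenosines that was first described as the splicing factor YT521-B, had 10.78 and 10.52 in the trained female and male pools, against 10.48 and 10.68 in the dark-reared pools. The trained pool was higher in females (0.30) and lower in males (-0.16). With 1 array for each sex, this difference between the sexes has no replicate.

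Among the hnRNPs, 1 of the 10 tested probes was lower (10%) and 2 were higher (20%), beside 11.2% and 6.31% over the array. HNRNPH1, which binds G-rich stretches and regulates exon choice, had 12.52 and 12.34 in the trained female and male pools, against 12.96 and 12.87 in the dark-reared pools. It fell by 0.48 log2 units (SD 0.061, n = 2; limma's adjusted p = 0.00866). Its close relative HNRNPH3 had 11.13 and 11.22 in the trained pools, against 10.95 and 10.93 in the dark-reared pools, and rose by 0.24 (SD 0.079, n = 2; limma's adjusted p = 0.0387). The H family therefore held a lower and a higher member. The groups of both did not overlap, as for 29.9% (lower) and 24.6% (higher) of all tested probes. TC209718, annotated as a homologue of hnRNP A0, rose by 0.36 (SD 0.052, n = 2, limma's adjusted p = 0.0132). It had 11.61 and 11.59 in the trained female and male pools, against 11.21 and 11.27 in the dark-reared pools. Another probe annotated to hnRNP A0, TC203633 on the same chromosome, was not well above background in any channel and was not tested. When the arrays were centred on their median without loess, both were negative, HNRNPH3 at -0.51 and TC209718 at -0.41. That scaling moved probes by differing amounts. All tested probes had a median of -0.34, and 60.3% of them were called lower.

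The other hnRNPs stayed within 0.2 of 0 in their mean ratios and did not pass. HNRNPD, also called AUF1, which binds AU-rich elements, had 9.47 in both trained pools, against 9.28 and 9.32 in the dark-reared female and male pools (mean 0.17, limma's adjusted p = 0.0767). The means were 0.14 for HNRPA3, 0.063 for HNRNPA2B1, 0.027 for HNRNPR, -0.0093 for HNRNPU, -0.020 for TC204476, annotated to hnRNP A3, and -0.036 for HNRNPAB. The scaffold protein HNRNPU had signals of 11.39 in each trained pool, against 11.40 and 11.39 in the dark-reared pools.

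Of the SR family probes 11.1% were lower and 0 higher, beside 11.2% and 6.31% of all tested probes. SRSF11, an SR-related protein, was the only one of 9 to pass, at 7.14 and 7.08 in the trained female and male pools, against 7.38 and 7.32 in the dark-reared pools. It fell by 0.24 on the log2 scale in each sex (limma's adjusted p = 0.0309). TRA2B, a homologue of fly transformer 2 that promotes exon inclusion, had 12.67 and 12.46 in the trained pools, against 12.79 and 12.84 in the dark-reared pools (mean -0.25, limma's adjusted p = 0.0697). SRSF6 had 11.51 in both trained pools, against 11.30 and 11.36 in the dark-reared pools (mean 0.18, limma's adjusted p = 0.0708). With an intensity trend in the variance model TRA2B and SRSF6 passed, at adjusted p of 0.0428 and 0.0454.

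SRSF2, known as SC35 and a marker of nuclear speckles, had the largest positive mean of the members and the widest spread. Its probe had 9.72 and 9.51 in the trained female and male pools, against 9.08 and 9.36 in the dark-reared pools. The ratios were 0.64 in females and 0.14 in males (mean 0.39, SD 0.35, n = 2; limma's adjusted p = 0.0650). The means of the other SR family probes were 0.14 for TC203582, annotated to SR factor 7, 0.063 for SRSF5A and 0.0061 for SCAF4. SUGP2 had means of 0.11 and -0.049 at its 2 probes.

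Among the snRNP proteins 2 of 7 probes were lower (28.6%) and 0 higher, beside 11.2% and 6.31% over the array. SNRPE, the Sm core protein E, had 13.05 and 12.90 in the trained female and male pools, against 13.22 and 13.28 in the dark-reared pools. It fell by 0.28 log2 units (SD 0.15, n = 2; limma's adjusted p = 0.0390). SNRPD3, the Sm core protein D3, had 12.44 and 12.56 in the trained pools, against 12.63 and 12.79 in the dark-reared pools, and fell by 0.21 (SD 0.031, n = 2; limma's adjusted p = 0.0480). The Sm core was not uniform. SNRPF had a mean of 0.019, and TC223285, annotated to Sm-D1, had ratios of -0.13 in females and 0.20 in males.

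The U2 snRNP proteins lay on either side of 0. SNRPA1 had a mean of -0.12 (limma's adjusted p = 0.186) and SNRPB2 a mean of 0.17 (limma's adjusted p = 0.0911). PRPF4 of the U4/U6 snRNP had 8.01 and 8.10 in the trained female and male pools, against 7.89 and 7.74 in the dark-reared pools (mean 0.24, limma's adjusted p = 0.0697). The SF3 subunits, which belong to the U2 snRNP and recognise the branch site, were the flattest class. The means were 0.045 for SF3A1, 0.015 for SF3A2 and -0.048 for SF3B4, and the smallest adjusted p in limma's test was 0.609.

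**Figure D3:**
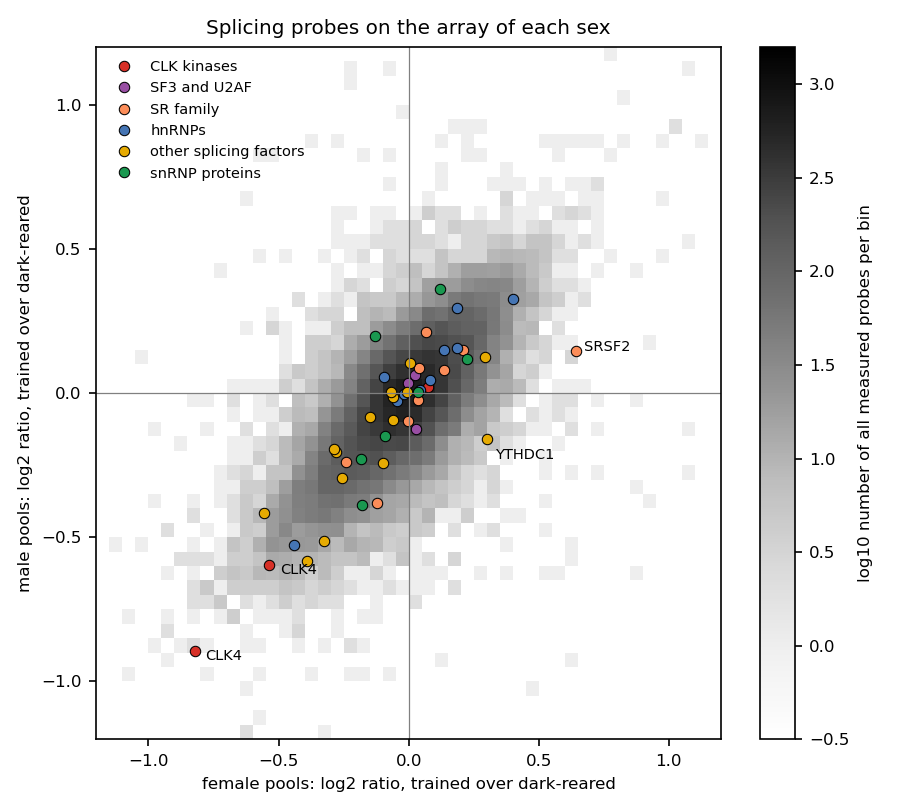
Log2 ratio of trained over dark-reared on the female array (horizontal axis) and the male array (vertical axis), with all 27372 tested probes as grey bins shaded by log10 of their number and the 47 splicing probes coloured by class. CLK4 lies at the lower left in both sexes, SRSF2 is higher mainly in females (0.64 against 0.14), and YTHDC1 has opposite signs.

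The sexes were compared without a test, since each had 1 array. Of the 47 probes, 21 were below 0 in both sexes (39.3% of all tested probes were), 18 above 0 in both and 8 of opposite sign. The share of the same sign was 83%, against 71.9% over all tested probes. The median absolute difference between the female and male ratios was 0.072 for splicing probes and 0.084 for all tested probes. The widest differences were those of SRSF2, YTHDC1 and TC223285. The trained and dark-reared signals lay apart with the trained pools lower for 21 probes (44.7%) and higher for 13 (27.7%). Over the array 29.9% of probes were lower and 24.6% higher without overlap. All called members were among those without overlap, and so was HNRNPU, with a mean of -0.0093 (limma's adjusted p = 0.924).

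Genes measured by more than 1 probe show how far a ratio depends on the probe. Counting probes outside the membership rule, and grouping by the array's annotation, 10 member genes had 2 tested probes. The means had the same sign at both probes for 5 of them, CLK4, SFSWAP, SMNDC1, PRPF8 and SCAF11, and opposite signs for the other 5. The rule takes CLK4 and SFSWAP by name with earlier results known. Of the opposite pairs, SF3B4 (-0.048 and 0.021), SUGP2 (-0.049 and 0.11) and hnRNP A3 (-0.020 and 0.14) had no called probe. The share of same signs over the whole array is not given here. In CLK4, SFSWAP and SMNDC1 both probes were called, in the same direction. SFPQ was the widest disagreement. Its second probe, 4211 bases away and outside the rule, had 9.52 and 9.60 in the trained female and male pools, against 9.98 and 9.99 in the dark-reared pools, and fell by 0.42 on the log2 scale (limma's adjusted p = 0.0103), while the member probe had a mean of 0.21.

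SRSF2 also had a second probe outside the rule, 1456 bases away on chromosome 18. It had 8.70 and 8.47 in the trained female and male pools, against 8.48 and 8.84 in the dark-reared pools (limma's adjusted p = 0.744). Its ratios were 0.22 in females and -0.37 in males. At both SRSF2 probes the ratio was thus more positive in females, but the mean changed sign between the probes.

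**Figure D4:**
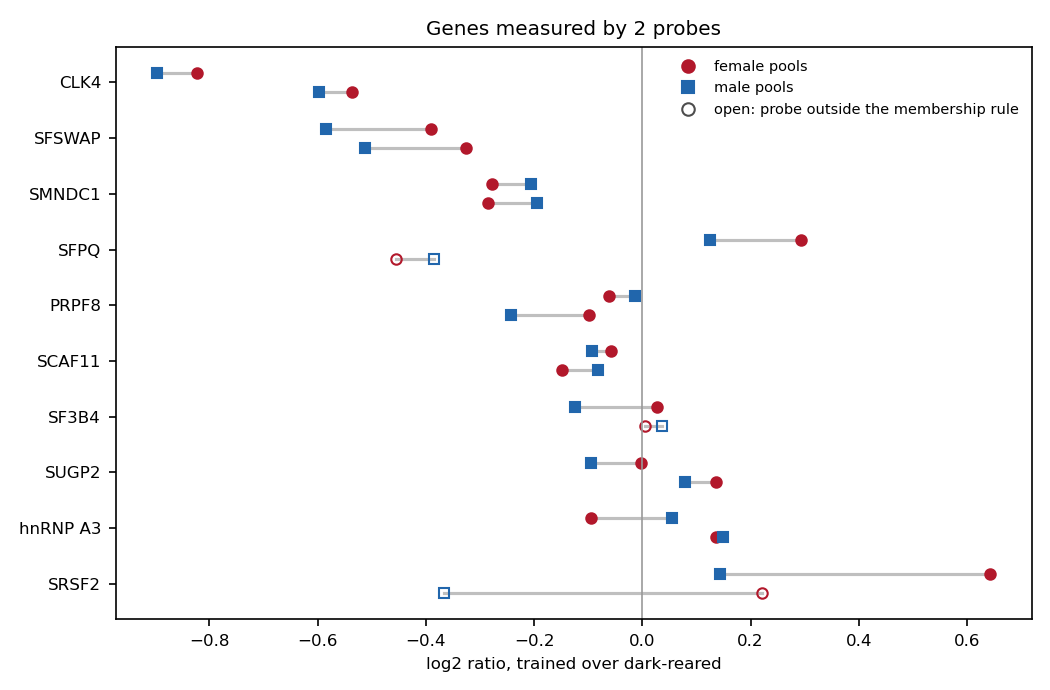
Log2 ratio of trained over dark-reared at each of the 2 probes of 10 genes (rows, 1 line for each probe), with female pools as red circles and male pools as blue squares, and open symbols for probes outside the membership rule. The probes of CLK4, SFSWAP and SMNDC1 lie together left of 0, and those of SFPQ lie on opposite sides.

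The position of the probes was examined as a property that the rule used only to leave out chromosome Z. Coordinates were given for 45 of the 47 probes. For 11 of them the interval on the genome was longer than 70 bases, as for a probe that crosses an intron, and 1 of these, SRSF11, was called lower and 0 higher. Of the 34 probes with a single short interval 11 were called lower. The 11 include both CLK4 and both SFSWAP probes, which the rule takes by name with earlier results known. Over the array 8.79% of probes with a long interval and 11.8% of those with a short one were called lower. The difference between the 2 kinds of member probe was not tested. The probe for SRSF11 spans 583 bases on chromosome 8.

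Chromosome 13 carried 5 of the tested probes with a galGal2 coordinate, of which 4 were lower, both CLK4 probes, HNRNPH1 and SLU7. The rule takes CLK4 by name with earlier results known, and probes of the same gene are not independent. Of all 543 tested probes on that chromosome 9.76% were lower. The fifth, TC209718, was higher. The HNRNPH1 probe, from 12520176 to 12520235, lies 404977 bases from the nearer CLK4 probe. The TC209718 probe, which was higher, starts at 13274951 and is nearer to CLK4 than the HNRNPH1 probe. The SLU7 probe lies far from both, starting at 1756541. In the GRCg7b assembly 1 gene separates CLK4 from HNRNPAB and 9 separate it from HNRNPH1. HNRNPAB had 11.61 and 11.65 in the trained female and male pools, against 11.66 and 11.67 in the dark-reared pools, so this neighbour of CLK4 had a mean of -0.036. It was not called (limma's adjusted p = 0.681). Its probe has no galGal2 coordinate, so it is missing from the 5 although GRCg7b places the gene on the same chromosome.

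Splicing genes that the rule does not take were counted from a list of 86 genes, of which 49 were measured by 54 probes. Of these probes 7 were lower (13%) and 6 higher (11.1%), beside 11.2% lower and 6.31% higher over the whole array. The processed signals gave BCAS2 and ELAVL1, both among the lower ones, means of 0.036 and 0.11. Core spliceosome genes had 4 of 27 probes lower (14.8%), LSM8 (-0.46), PRPF3 (-0.41), BCAS2 (-0.35) and CWC22 (-0.31). Higher were 2 (7.41%), LSM7 (0.22) and DDX46 (0.21). LSM8 belongs to the ring that binds U6 RNA, and PRPF3 to the U4/U6 snRNP.

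Neuronal and other splicing regulators had 2 of 22 probes lower (9.09%), ELAVL1 (-0.34) and RBM10 (-0.23), beside 11.2% over the array. Higher were 4 probes (18.2%), CELF2 (0.34), CELF6 (0.27), SRRM1 (0.25) and CELF4 (0.24), beside 6.31% over the array. CELF1 did not pass (mean 0.086, limma's adjusted p = 0.319). CELF2, a regulator of brain exons, had 9.84 and 9.86 in the trained female and male pools, against 9.52 and 9.49 in the dark-reared pools. Of the enzymes other than CLK kinases that phosphorylate SR proteins, the main kinases SRPK1 (-0.085 and 0.019 at its probes) and SRPK2 (0.076) did not pass. TOP1, a topoisomerase that has been described to phosphorylate SR proteins, fell by 0.38 log2 units. In limma's test the adjusted p was 0.0140 for CELF2 and 0.0118 for TOP1. RBM3, a cold-inducible RNA-binding protein, had ratios of 0.10 in females and -0.097 in males. Its mean was 0.0014, against 0.42 in the processed signals.

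The calls depended on how the signals were scaled. With the processed signals limma called 0 of the 47 probes and 0 on the whole array (smallest adjusted p = 0.261). In those signals 11 of the 12 lower probes were below 0 on both arrays, and TC208903 was the exception. So were 78% of the 3074 probes called lower on the array and 34.4% of all tested probes. The calls came from the same spots, so these signs are no independent check. With a normexp offset of 16, 4 of the 14 calls remained, both CLK4 probes, C1QBP and HNRNPH1. The split lay at the threshold: in limma's test these had adjusted p from 0.0490 to 0.0499, and both SFSWAP probes had 0.0501. The smallest on the array was 0.0490. Over the array the calls fell to 2.29% lower and 1.12% higher, from 11.2% and 6.31%.

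**Figure D5:**
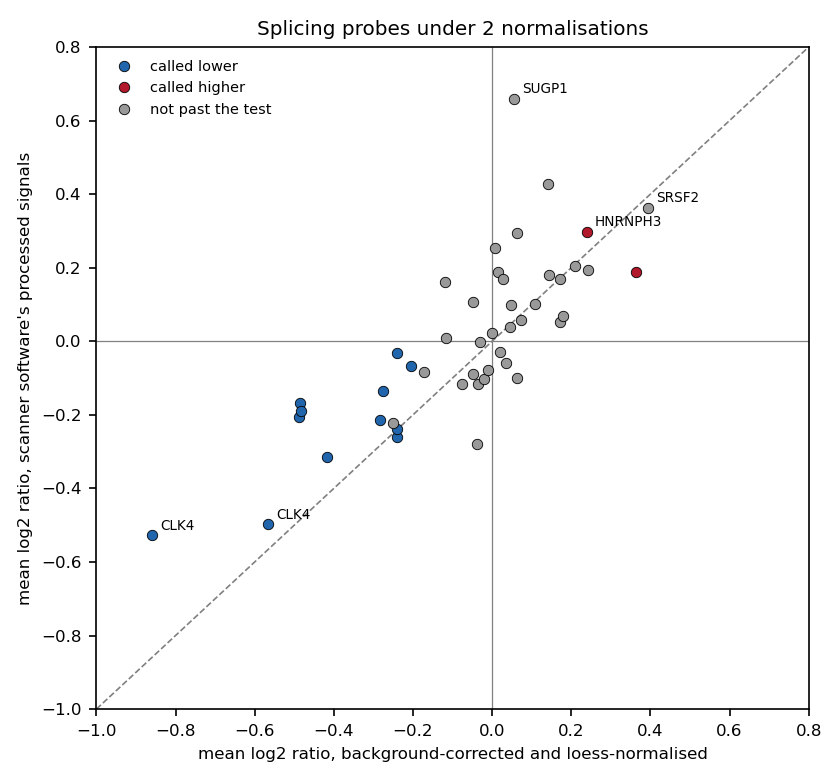
Mean log2 ratio of trained over dark-reared for each of the 47 splicing probes after background correction and loess (horizontal axis) and from the scanner software's processed signals (vertical axis), with the line of equality dashed. CLK4 is the lowest gene on both axes, most other lower probes lie closer to 0 on the vertical axis, SRSF11 does not, and SUGP1 is high on the vertical axis alone.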

How the data were processed

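The authors deposited 2 scanner tables and a series table. Per the file headers, mean and background intensity of each spot are raw, and the processed intensity was corrected by the scanner software. The deposited log2 values equal the log2 ratio of processed signals, Cy3 over Cy5, and direction was taken from the dye labels, with which the wording of the titles goes, while the pool codes in them stand in the reverse order. The notes of the submitters name software release 8.5.1.1, whereas 9.5.3.1 stands in the headers. Array number limits the precision.

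Mean intensities were corrected with limma 3.58.1 (R 4.3.3) by normexp, offset 50, on median backgrounds. Loess followed, giving control spots a weight of 0. Pool levels are channel values after Aquantile scaling, which leaves ratios unchanged. The 25 probes flagged as outliers were dropped. The test was lmFit and eBayes (1 residual and 5.06 prior degrees of freedom) with Benjamini-Hochberg adjustment over 27372 probes. The sexes served as replicates. With more prior than residual degrees of freedom, the p-values rest mainly on a variance shared over all probes. They rest less on a probe's own spread between 2 arrays. SRSF11, with an SD of 0.00058, had a standard error of 0.053. The steps were tested on simulated data.

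Descriptions were searched without regard to case, and 42 tested probes remain if case is told apart. Of the 50 members, 28 were named by accession, 10 by gene number and 2 by array symbol in a RefSeq table of GRCg7b, and 10 kept the array's name. Coordinates are those of galGal2. Members and lists were chosen with earlier results of these data known. The rule for named genes took the 8 largest called ratios in each direction among probes well above background in every channel, every CLK and SFSWAP probe, every probe of a gene with several member probes of which 1 passed, and the 2 largest ratios of each class. For the genes outside the membership it allowed the 4 largest. The other members, and the other called genes of those lists, are named in addition, which was decided after their values were seen.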

Additional observations from a re-analysis of the deposited data

Results flagged for a closer look

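The following probes had ratios of opposite sign on the female and the male array. These differences between the sexes were not tested, since each sex had 1 array. The female minus male difference on the log2 scale was 0.46 for YTHDC1 (0.30 in females and -0.16 in males). It was -0.33 for TC223285, annotated to Sm-D1 (-0.13 in females and 0.20 in males). It was 0.15 for SF3B4 (0.027 and -0.12) and -0.15 for TC204476, annotated to hnRNP A3 (-0.095 and 0.055). The others were smaller, at -0.072 for PRPF18, 0.057 for SCAF4, -0.037 for SF3A2 and -0.011 for TC198244. The median absolute difference over all tested probes of the array was 0.084, so these 4 lay within it.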

How the results depend on the processing

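The test was paired by array, since each ratio sets a trained pool against the dark-reared pool of the same sex on 1 array. No other pairing was used. As reported, 12 splicing probes were lower and 2 higher, with a median ratio of -0.0093. With a normexp offset of 16 there were 4 lower (8.51%) and 0 higher (median 0.0090), beside 2.29% and 1.12% of all tested probes. HNRNPU (0.0092) and TC198244 (0.012) then turned positive. With processed signals there were 0 lower and 0 higher (median -0.0012), and 0 on the whole array. Those signals turned the sign of SNRPA1 (0.16), the SCAF11 probe at 27790512 (0.0092), SF3B4 (0.11), TC198244 (0.023), SNRPF (-0.030), TC223285 (-0.060) and SRSF5A (-0.099), none of them called. With median centring 40 were lower and 0 higher (median -0.57), while all tested probes had a median of -0.34 and 60.3% of them were lower. Without loess the shift was not the same for all probes. HNRNPR moved from 0.027 to -0.81, and the PRPF8 probe at 5043348 from -0.037 to 0.15. A value with median centring can therefore not be read against -0.34 alone. Median centring put below 0 SF3A2 (-0.35), SNRPF (-0.64), HNRNPR (-0.81), TC223285 (-0.50), SF3A1 (-0.77), CLK2 (-0.11), HNRNPA2B1 (-0.59), SRSF5A (-0.72), YTHDC1 (-0.64), the SUGP2 probe at 3034181 (-0.47), HNRPA3 (-0.57), HNRNPD (-0.45), SNRPB2 (-0.64), SRSF6 (-0.59), SFPQ (-0.46), HNRNPH3 (-0.51), PRPF4 (-0.21), TC209718 (-0.41) and SRSF2 (-0.23). It put the PRPF8 probe at 5043348 above 0 (0.15). The cause of these changes was not tested.

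An adjusted p of 0.01 in limma's test left 4 lower (8.51%) and 0 higher, beside 1.51% and 0.409% of all tested probes. The brightest probe per gene gave 9 lower (22.5%) and 2 higher (5%) of 40, beside 11.6% and 6.52% over the array. Told apart by case, the rule gave 12 lower (28.6%) and 1 higher (2.38%) of 42, beside 11.2% and 6.31% over the array. The median was -0.025, and this alternative was chosen after seeing the data. Without the filter there were 12 lower (24%) and 3 higher (6%), beside 8.25% and 4.81% over the array. The median was then -0.0051, and the added probe was SRSF2 (limma's adjusted p = 0.0398). With every channel well above background there were 12 and 2 (median -0.0051), beside 11.9% and 6.6% over the array. With an intensity trend there were 13 and 3, beside 11.4% and 6.58%. Leaving out an array permits no test. The median of the splicing probes then ranged from -0.0065 to -0.0016, and that of all tested probes from -0.0136 to -0.0111. With 1 array left out, 8 probes lay on either side of 0: SF3B4 (-0.12 to 0.027), PRPF18 (-0.067 to 0.0047), TC204476 (-0.095 to 0.055), TC198244 (-0.0065 to 0.0045), SCAF4 (-0.023 to 0.035), SF3A2 (-0.0030 to 0.034), TC223285 (-0.13 to 0.20) and YTHDC1 (-0.16 to 0.30). With a normexp offset of 16 and with processed signals, the means of the 14 called probes kept their sign. With median centring HNRNPH3 and TC209718 changed sign and the other called probes did not. The filters, the intensity trend and the threshold leave each ratio as it is, so they cannot change a sign. Leaving out an array only shows the ratio of the other one. Few calls were made in the dimmest tertile of all tested probes, 1.12% lower and 0.844% higher. The part of signals near background and of the normexp offset in this was not tested.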
